A study of Mus musculus with 9 samples.

Results

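The 10 genes described here are the transcription factors ATF4 and CHOP and regulators that act with them or downstream of them in the integrated stress response. They are Atf4, Ddit3 (which encodes CHOP), Cebpb, Atf3, Atf5, Trib3, Chac1, Sesn2, Ddit4 and Ppp1r15a. They were listed by name, with earlier results of these data known, and all 10 were among the 12904 genes tested, out of 56980 Ensembl identifiers in the deposited table. Poly(A) RNA was sequenced from MH-S, a line of mouse alveolar macrophages, in 3 groups with 3 libraries each. CuO NPs + TTM cells received copper oxide nanoparticles at 20 µg/ml and TTM at 10 µM, CuO NPs cells received the nanoparticles at 20 µg/ml alone, and the third group were controls. The time was 24 h. The name TTM is not expanded in the labels and in work on copper usually means tetrathiomolybdate, a copper chelator. No group had TTM without nanoparticles, and all libraries come from this 1 cell line.

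In the integrated stress response, kinases that sense a shortage of amino acids, misfolded protein in the endoplasmic reticulum, double-stranded RNA or damaged mitochondria phosphorylate the translation factor eIF2. Most protein synthesis then slows, while the Atf4 mRNA, whose leader holds short upstream reading frames, is translated more. ATF4 pairs with C/EBP proteins and other basic leucine zipper factors on composite elements and raises genes for amino acid supply, and with prolonged stress it raises CHOP, which takes part in the programme towards cell death. GADD34, the product of Ppp1r15a, brings a phosphatase back to eIF2 and closes the loop. Protein levels and eIF2 phosphorylation were not measured here, so every value below is an mRNA level.

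Values are TPM (transcript abundance scaled for length to a fixed total per library), as the authors deposited them, so levels can be compared between genes per unit length, and the read depth behind them is unknown. A library listed 19710 to 20863 genes above 0. Across genes, Pearson correlations lay at 0.981 to 0.986 within a group and at 0.943 to 0.962 across groups. Whether the libraries of a group come from independent cultures is not stated, so a p-value here reflects spread between libraries that may be technical. The 13 macrophage markers looked at summed to 2147 to 2220 TPM in CuO NPs + TTM, 1783 to 1834 TPM in CuO NPs and 3493 to 3568 TPM in control libraries, and 11 of them passed the filter on low values. The alveolar macrophage marker Siglecf, at no more than 0.09 TPM, was below that filter, as was Mrc1. All 11 tested markers were lower in CuO NPs than in control under every scaling tried, and the part this has in the results below was not tested. No epithelial marker passed the filter, and none of the 9 exceeded 0.59 TPM in any library. Of the fibroblast, endothelial and lymphocyte markers 1 each passed it. The 8 granulocyte markers, of which Mpo and Elane did not pass, summed to 67.0 to 74.7 TPM in CuO NPs + TTM, 206 to 225 TPM in CuO NPs and 390.2 to 407 TPM in control libraries. A single marker reached 347 TPM in control, so the control sums rest largely on 1 gene. Of the 6 tested, 1 was higher and 3 lower in CuO NPs than in control, where 11.8% and 30.1% of all tested genes were. The part of these markers in the results was not tested either. In bulk RNA, a change in the share of cells that express a gene and a change in RNA per cell cannot be told apart.

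Promoter windows are shown for 5 members because they fall on both sides of the TTM comparison reported below and hold short motifs known for the factors involved. The sequences are from RefSeq on GRCm38.p6, not the build GRCm39 named in the submitters' processing notes, and each runs 5′ to 3′ on the gene's strand for 300 bases, from 250 before the start site to 50 from it on. Capitals mark matches on either strand to the core of the C/EBP-ATF composite element (TGATGNAA), the cAMP response element (TGACGTCA), the AP-1 site (TGACTCA) and the core of the antioxidant response element (TGACNNNGC). Chac1 is at chr2:119350992-119351291 on the plus strand. Trib3 is at chr2:152344011-152344310, Atf3 at chr1:191183284-191183583, Ppp1r15a at chr7:45526219-45526518 and Sesn2 at chr4:132510407-132510706, all on the minus strand.
Chac1: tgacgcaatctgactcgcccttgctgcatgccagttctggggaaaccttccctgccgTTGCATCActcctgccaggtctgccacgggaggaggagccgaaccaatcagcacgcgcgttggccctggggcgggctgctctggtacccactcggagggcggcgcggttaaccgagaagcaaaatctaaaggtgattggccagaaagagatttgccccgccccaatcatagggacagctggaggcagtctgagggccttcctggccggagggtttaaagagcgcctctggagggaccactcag
Trib3: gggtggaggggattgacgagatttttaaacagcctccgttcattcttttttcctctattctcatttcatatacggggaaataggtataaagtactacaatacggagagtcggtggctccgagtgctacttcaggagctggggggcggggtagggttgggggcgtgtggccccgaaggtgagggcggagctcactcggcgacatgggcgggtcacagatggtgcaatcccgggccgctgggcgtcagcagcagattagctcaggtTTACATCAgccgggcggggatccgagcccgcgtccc
Atf3: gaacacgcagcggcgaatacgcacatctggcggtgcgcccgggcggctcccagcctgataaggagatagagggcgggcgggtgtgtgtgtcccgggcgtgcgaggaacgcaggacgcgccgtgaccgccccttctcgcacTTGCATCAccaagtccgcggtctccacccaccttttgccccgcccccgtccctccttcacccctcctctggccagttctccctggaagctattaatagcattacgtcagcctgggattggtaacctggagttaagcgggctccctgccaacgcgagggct
Ppp1r15a: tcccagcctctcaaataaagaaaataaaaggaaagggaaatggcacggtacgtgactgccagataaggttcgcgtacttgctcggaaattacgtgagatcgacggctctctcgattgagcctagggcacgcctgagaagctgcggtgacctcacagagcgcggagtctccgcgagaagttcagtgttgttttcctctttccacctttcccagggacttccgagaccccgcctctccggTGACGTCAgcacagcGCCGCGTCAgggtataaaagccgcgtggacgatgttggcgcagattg
Sesn2: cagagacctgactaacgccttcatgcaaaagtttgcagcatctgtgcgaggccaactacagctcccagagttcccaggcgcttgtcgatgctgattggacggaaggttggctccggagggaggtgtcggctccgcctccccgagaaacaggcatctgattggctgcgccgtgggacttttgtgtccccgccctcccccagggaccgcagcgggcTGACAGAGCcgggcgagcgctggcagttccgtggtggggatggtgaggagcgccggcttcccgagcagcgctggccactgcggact

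The composite element core was found in the windows of Chac1, Trib3 and Atf3, so 3 of the 10 members held it, against 3.97% of 32851 RefSeq windows of the same length. All 3 matches read on the opposite strand. Counting the start site as base 1, with no base 0, the match begins at base -193 in Chac1, -110 in Atf3 and 15 in Trib3. The cAMP response element was found in Ppp1r15a alone among the members, beginning at base -12, and 1.79% of all windows hold it. The antioxidant response element core was found in Ppp1r15a, Sesn2 and Cebpb, and 12.4% of all windows hold it. An AP-1 site was found in the window of Ddit3, as in 5.2% of all windows. No match in a member overlapped another. The windows of Atf4, Atf5 and Ddit4 held none of these letters. Of the 3 members shown with the composite element core, Chac1 and Trib3 were higher in CuO NPs + TTM than in CuO NPs and Atf3 was lower. A match describes letters in this window and says nothing of binding.

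Exposure to CuO NPs was set against control to see which of these regulators differ. All 10 members passed the test, 9 higher and 1 lower, where 41.9% of the 12904 tested genes passed, 11.8% higher and 30.1% lower. The largest changes were in Ppp1r15a, the eIF2 phosphatase subunit, Trib3, a pseudokinase that restrains ATF4 and AKT, and Sesn2, a stress-induced inhibitor of the kinase complex mTORC1. The exception was Atf5, which fell. The median log2 fold change of the 10 was 1.33, beside -0.12 over all tested genes. With median-of-ratios scaling, 2571 genes passed higher and 2561 lower over the whole table, against 1518 and 3890 with TPM, and the members stayed at 9 higher and 1 lower under that and the 3 other scalings tried.

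Adding TTM to the nanoparticles divided the members. Atf4, Ddit3, Trib3, Chac1 and Ddit4 were higher in CuO NPs + TTM than in CuO NPs, and Atf3, Sesn2 and Ppp1r15a were lower. Atf5 and Cebpb did not pass the test. Thus 8 of 10 passed, 5 higher and 3 lower, where 53.1% of tested genes passed, 34.6% higher and 18.5% lower, a background that already holds most genes. The median of the members was 0.14 and that of all tested genes 0.12, so relative to the shift of the whole table the members that rose did so by 0.11 (Ddit4) to 0.76 (Ddit3), and those that were lower stood at -0.62 (Sesn2) to -0.75 (Ppp1r15a). With median-of-ratios scaling, 3402 genes passed higher and 3511 lower, against 4469 and 2384 with TPM, and 4 members passed higher and 3 lower. Median centring left 2 members higher (Ddit3 and Trib3) and 3 lower, where 2741 genes of the whole table passed higher and 4222 lower.

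Set against control, CuO NPs + TTM had 7 members higher and 1 lower, the lower one again Atf5, where 55.5% of tested genes passed, 27.3% higher and 28.2% lower. Atf3 and Cebpb did not pass. The median of the members was 1.04 beside 0.00 for all tested genes. These 3 comparisons share libraries in pairs, so a high level in CuO NPs enters the first as higher and the second as lower, and their values are given side by side without an overlap.

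**Figure D1:**
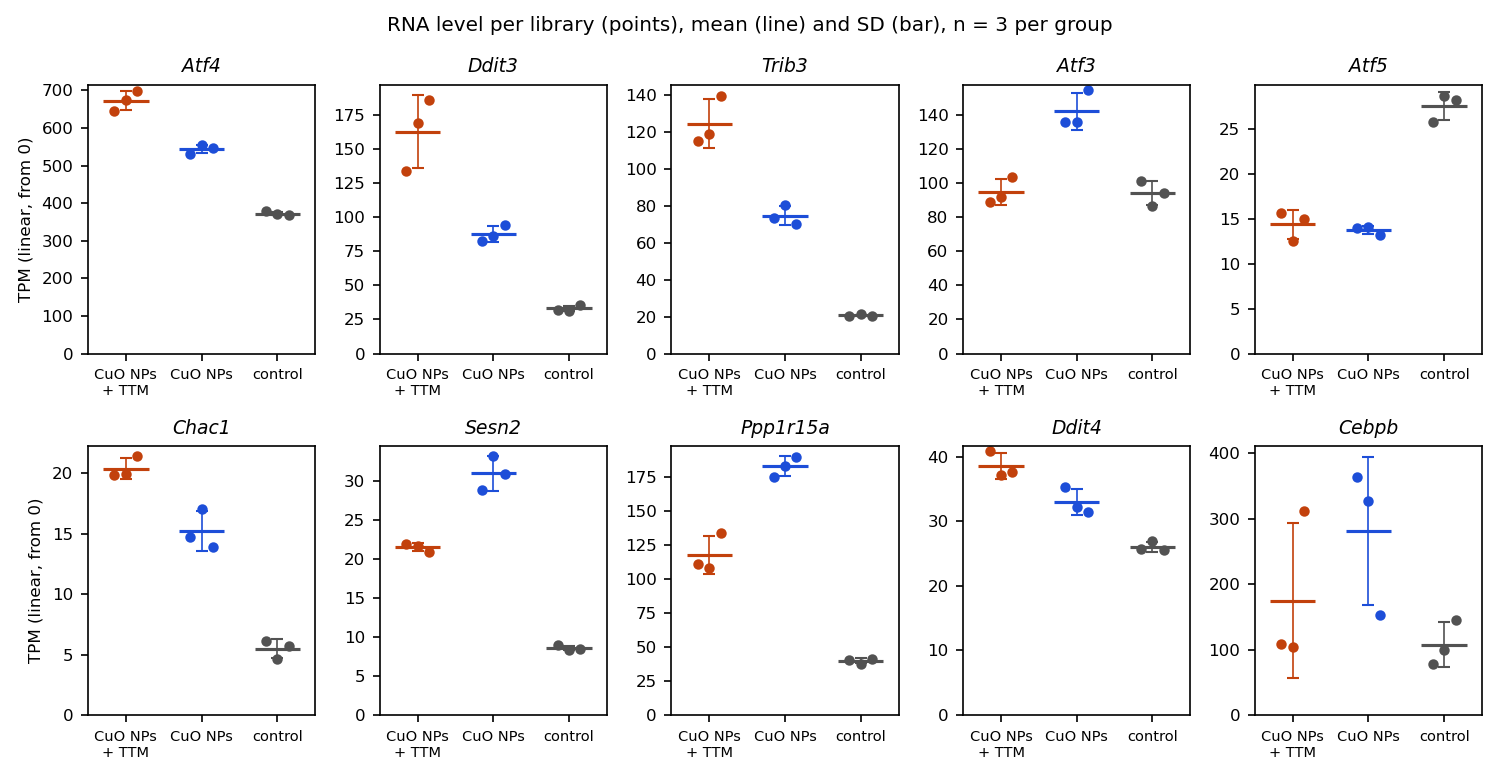
TPM (linear axis, starting at 0) of each of the 10 members in each library, with CuO NPs + TTM left, CuO NPs in the middle and control right; points are libraries, thick lines the mean and bars the SD of 3. Ddit3 and Trib3 are highest in CuO NPs + TTM, Ppp1r15a and Sesn2 in CuO NPs, and Atf5 in control, while Cebpb libraries scatter within each group.

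Among the transcription factors, Atf4 (ENSMUSG00000042406) was the most abundant member in every group. It had 646, 675 and 698 TPM in CuO NPs + TTM, 532, 555 and 547 TPM in CuO NPs, and 378, 371 and 369 TPM in control libraries. The groups lie in 3 separate steps with no overlap. Its level was 1.46-fold higher in CuO NPs than in control, with a log2(TPM + 1) difference of 0.55 (SE 0.0397, limma adjusted p = 6.56e-06). It was 1.24-fold higher again in CuO NPs + TTM than in CuO NPs (difference 0.30, limma adjusted p = 0.000192). That call was lost with median centring, which brings the medians of all libraries to a common value (0.12, limma adjusted p = 0.074). In that setting the median log2 fold change of all tested genes was -0.073. Among the members only Ddit4 changed less between CuO NPs and control. ATF4 is known to be controlled largely through translation, which was not measured here, and its part in these values was not tested.

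Ddit3 (ENSMUSG00000025408) encodes CHOP, the factor that ATF4 induces and that can repress survival genes. CuO NPs + TTM libraries had 133, 169 and 186 TPM, CuO NPs libraries 82.25, 85.9 and 93.9 TPM, and control libraries 32.25, 31.4 and 35.4 TPM. Every CuO NPs + TTM library exceeded every CuO NPs library, and these exceeded every control. The mean was 2.65-fold that of control in CuO NPs (log2(TPM + 1) difference 1.38, SE 0.110, limma adjusted p = 1.14e-05). In CuO NPs + TTM it was 1.86-fold that of CuO NPs (difference 0.88, limma adjusted p = 0.000154) and 4.93-fold that of control. By level, Ddit3 ranked 3 of the 10 members in CuO NPs + TTM and 5 in both CuO NPs and control. The gene overlaps Mars1, the methionyl-tRNA synthetase gene, on the opposite strand in the GRCm38 annotation, and the use of strand in counting is not known. Mars1 averaged 99.3 TPM in CuO NPs + TTM, 63.5 TPM in CuO NPs and 55.55 TPM in control, so it moved in the same order as Ddit3 and its part in the Ddit3 values was not tested. The symbol has a second identifier that is listed at 0 in every library.

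Trib3 (ENSMUSG00000032715), whose product binds ATF4 and AKT and dampens both, followed the same order. It had 115, 119 and 139.6 TPM in CuO NPs + TTM, 73.35, 80.3 and 70.1 TPM in CuO NPs, and 20.3, 21.2 and 20.35 TPM in control libraries. The 3 groups did not overlap, and no member changed more between CuO NPs + TTM and control. The mean was 3.62-fold that of control in CuO NPs (log2(TPM + 1) difference 1.80, SE 0.0786, limma adjusted p = 2.70e-07) and 6.03-fold in CuO NPs + TTM (2.53, limma adjusted p = 3.77e-08). Between CuO NPs + TTM and CuO NPs the difference was 0.73 (limma adjusted p = 6.39e-05).

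Chac1 (ENSMUSG00000027313) encodes an enzyme that degrades glutathione and was among the least abundant members. Its levels were 19.8, 19.9 and 21.4 TPM in CuO NPs + TTM, 14.7, 17.1 and 13.9 TPM in CuO NPs, and 6.14, 4.63 and 5.67 TPM in control libraries. The groups did not overlap, and the step between control and CuO NPs was larger than the step that TTM added. The log2(TPM + 1) difference was 1.32 for CuO NPs against control (SE 0.107, limma adjusted p = 1.23e-05). It was 0.40 for CuO NPs + TTM against CuO NPs (limma adjusted p = 0.0104), and this call was lost with median centring (0.22, limma adjusted p = 0.0699).

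Ddit4 (ENSMUSG00000020108) encodes REDD1, which restrains mTORC1 through the TSC complex. It had 40.9, 37.15 and 37.6 TPM in CuO NPs + TTM, 35.3, 32.2 and 31.4 TPM in CuO NPs, and 25.7, 26.9 and 25.5 TPM in control libraries. The order was that of Atf4, with small steps and no overlap. CuO NPs stood 0.33 above control on the log2(TPM + 1) scale (SE 0.0640, limma adjusted p = 0.00291). The further 0.22 in CuO NPs + TTM (limma adjusted p = 0.0160) was lost with median-of-ratios scaling (0.09, limma adjusted p = 0.288), median centring (0.03) and quantile normalization (0.13), and without mitochondrially encoded genes (0.16). It was also lost without CuO NPs replicate 3 (limma adjusted p = 0.0611) or without CuO NPs + TTM replicate 1 (limma adjusted p = 0.0573).

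The 3 members that were higher in CuO NPs and lower again with TTM are a feedback phosphatase subunit, an mTORC1 inhibitor and a transcription factor. Ppp1r15a (ENSMUSG00000040435), which encodes GADD34, had 111, 108 and 134 TPM in CuO NPs + TTM, 176, 183 and 190.4 TPM in CuO NPs, and 40.7, 37.9 and 41.3 TPM in control libraries. All CuO NPs libraries lay above all CuO NPs + TTM libraries, and these lay above all controls. Its mean was 4.58-fold that of control in CuO NPs, the highest fold of any member in that comparison (log2(TPM + 1) difference 2.17, SE 0.0797, limma adjusted p = 1.06e-07). In CuO NPs + TTM it was 0.643-fold that of CuO NPs (difference -0.64, limma adjusted p = 0.000149) and 2.95-fold that of control.

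Sesn2 (ENSMUSG00000028893), which encodes the leucine sensor Sestrin 2, showed the same shape at lower levels. It had 22, 21.7 and 20.9 TPM in CuO NPs + TTM, 28.8, 33.3 and 30.9 TPM in CuO NPs, and 8.95, 8.34 and 8.52 TPM in control libraries. Again no groups overlapped, and the CuO NPs + TTM libraries were nearer to CuO NPs than to control. The log2(TPM + 1) difference was 1.74 for CuO NPs against control (SE 0.0689, limma adjusted p = 1.50e-07), -0.50 for CuO NPs + TTM against CuO NPs (limma adjusted p = 0.000254) and 1.23 for CuO NPs + TTM against control (limma adjusted p = 9.13e-07).

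Atf3 (ENSMUSG00000026628), a basic leucine zipper factor induced by many stresses, had nearly the same mean in CuO NPs + TTM as in control, at 94.6 and 93.9 TPM. It had 88.6, 91.7 and 103 TPM in CuO NPs + TTM, 136, 136 and 154 TPM in CuO NPs, and 101, 86.6 and 94.3 TPM in control libraries. CuO NPs stood apart from both other groups, which overlapped each other. The log2(TPM + 1) difference was 0.59 for CuO NPs against control (SE 0.0799, limma adjusted p = 0.000325) and -0.58 for CuO NPs + TTM against CuO NPs (limma adjusted p = 0.000266). Between CuO NPs + TTM and control it was 0.01 with the same SE (limma adjusted p = 0.922), and a p that misses the threshold does not show equal levels.

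**Figure D2:**
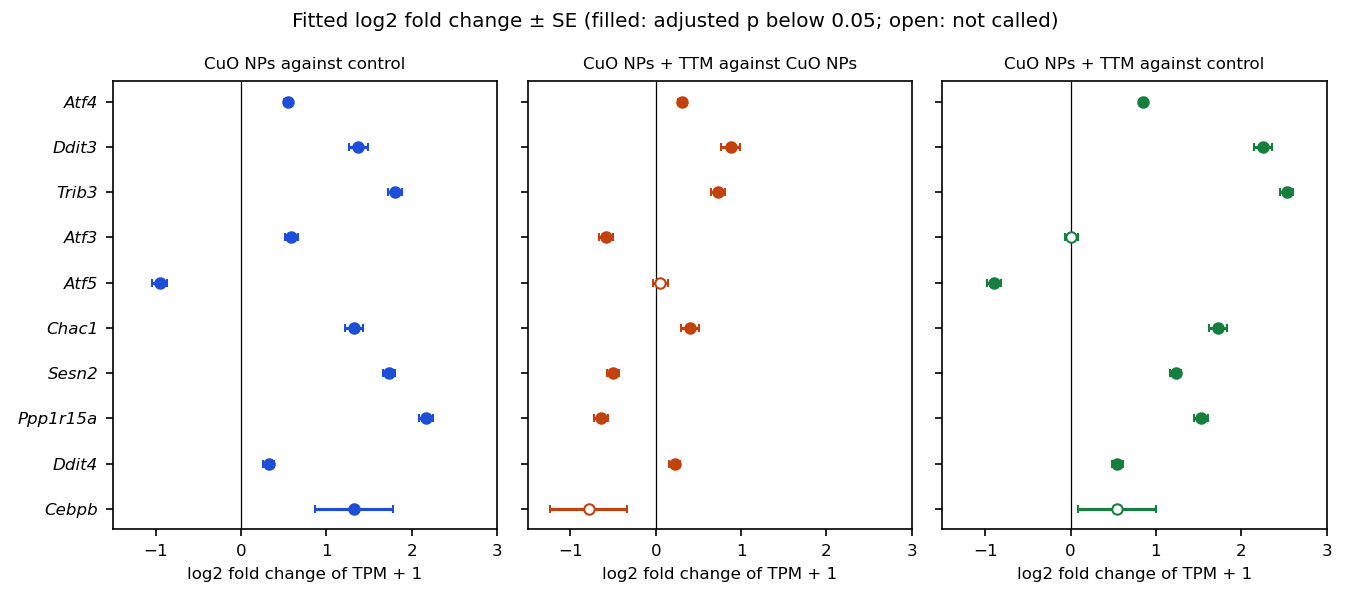
Log2 fold changes of TPM + 1 for the 10 members in the 3 comparisons, with bars of 1 SE and filled points for genes that passed the test. Ppp1r15a, Sesn2 and Atf3 lie right of 0 for CuO NPs against control and left of it for CuO NPs + TTM against CuO NPs, Atf5 lies at -0.95 for CuO NPs against control, and Cebpb has the widest bars.

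Atf5 (ENSMUSG00000038539), a factor tied to the mitochondrial stress response that like Atf4 has upstream reading frames, ran the other way. It had 15.6, 12.6 and 14.96 TPM in CuO NPs + TTM, 13.9, 14.1 and 13.2 TPM in CuO NPs, and 25.8, 28.65 and 28.3 TPM in control libraries. Both exposed groups lay below every control and overlapped each other. The mean was 0.499-fold that of control in CuO NPs (log2(TPM + 1) difference -0.95, SE 0.0863, limma adjusted p = 2.66e-05) and 0.522-fold in CuO NPs + TTM (-0.90, limma adjusted p = 2.36e-05). Between CuO NPs + TTM and CuO NPs the difference was 0.06 (limma adjusted p = 0.617). By level Atf5 ranked 10 of 10 in both exposed groups and 6 in control. It overlaps the nucleoporin gene Nup62 on the opposite strand, which averaged 93.2 TPM in CuO NPs + TTM, 98.9 TPM in CuO NPs and 63.6 TPM in control. The mean of Nup62 was thus higher in both exposed groups than in control, and its part in the Atf5 values was not tested.

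Cebpb (ENSMUSG00000056501) encodes C/EBPβ, a partner of ATF4 and a factor of inflammatory genes in macrophages, and varied most within groups. It had 109, 103 and 312 TPM in CuO NPs + TTM, 364, 326 and 152 TPM in CuO NPs, and 78.4, 98.9 and 145 TPM in control libraries. Replicate 3 of CuO NPs + TTM lay near the CuO NPs level, and replicate 3 of CuO NPs lay near the highest control. The log2(TPM + 1) difference between CuO NPs and control was 1.33 (SE 0.455, limma adjusted p = 0.0409). That call was lost without control replicate 1 (limma adjusted p = 0.126) or 2 (0.0914), without CuO NPs replicate 1 (0.129) or 2 (0.112), with no filter (0.125) and without the intensity trend (0.0600), among other settings, and over all alternatives the limma adjusted p ran between 0.0112 and 0.129. CuO NPs + TTM against CuO NPs gave -0.79 (limma adjusted p = 0.172), and without CuO NPs + TTM replicate 3 it passed at -1.30 (limma adjusted p = 0.0177). The within-group SD of Cebpb was 0.698 on the log2 scale, against 0.0387 (Atf4) to 0.159 (Ddit3) for the other members. Among the 2616 genes with a mean of at least 50 TPM, 16 had an SD at least as large, Cebpb included. Tmem189, on the opposite strand, ran between 314 and 380 TPM over all libraries.

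Among other genes known as targets of ATF4 or CHOP, more were higher than lower in each of the 3 comparisons, under every scaling tried. Of 53 such genes 46 were tested. In CuO NPs against control 29 were higher and 3 lower, where 11.8% of all tested genes were higher and 30.1% lower. The median log2 fold change was 0.36 beside -0.12 for all genes. In CuO NPs + TTM against CuO NPs 29 were higher and 6 lower (median 0.36 beside 0.12). Of all tested genes 34.6% were higher and 18.5% lower there. Median-of-ratios scaling gave 23 and 10, beside 3402 and 3511 over the whole table. Median centring gave 23 and 13, beside 2741 and 4222. Against control, CuO NPs + TTM had 36 higher and 4 lower (median 0.80 beside 0.00), where 27.3% of all tested genes were higher and 28.2% lower. The list was drawn up with results of these libraries known, so its direction is a description.

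Among the targets with the largest changes, Slc6a9, a glycine transporter, averaged 46.2 ± 4.59 TPM in CuO NPs and 11.2 ± 0.135 TPM in control (SD, n = 3 each, as for all means given; log2 fold change 1.95). Gadd45a, a growth arrest gene, averaged 62.6 ± 5.27 TPM in CuO NPs + TTM, 46.3 ± 4.40 TPM in CuO NPs and 11.8 ± 1.42 TPM in control. Sqstm1, the autophagy receptor p62, averaged 851 ± 35.2 TPM in CuO NPs and 279 ± 6.66 TPM in control (1.60). The transporter and the growth arrest gene stayed among the largest changes of CuO NPs + TTM against control, at 2.16 and 2.32, joined by Cth, the cysteine-producing enzyme cystathionine gamma-lyase, at 1.93.

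With TTM, the largest rises over CuO NPs were in 2 metabolic enzymes and Ndrg1. Pck2, the mitochondrial form of phosphoenolpyruvate carboxykinase, averaged 57.5 ± 2.77 TPM in CuO NPs + TTM and 20.3 ± 1.32 TPM in CuO NPs (log2 fold change 1.46). Pycr1, which makes proline, averaged 19.8 ± 3.12 TPM in CuO NPs + TTM and 7.54 ± 2.42 TPM in CuO NPs (1.31). Ndrg1, a stress-responsive gene also induced in low oxygen, averaged 106 ± 6.03 TPM in CuO NPs + TTM and 44.2 ± 0.836 TPM in CuO NPs (1.24). Pck2 had passed between CuO NPs and control with a change of 0.24, while Pycr1 (0.23) and Ndrg1 (-0.03) had not.

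The 6 targets that were lower in CuO NPs + TTM than in CuO NPs were named after their values were seen. Slc7a11 and Slc3a2, which encode the 2 subunits of a cystine importer, fell in CuO NPs + TTM against CuO NPs. Their log2 fold changes were -0.93 and -0.78, after differences of 1.25 and 0.64 between CuO NPs and control. Sqstm1 gave -1.17, the signalling regulator Rgs2 gave -1.03, the glutamine transporter Slc38a2 gave -0.43 and the autophagosome gene Map1lc3b gave -0.16 between CuO NPs + TTM and CuO NPs. Of these 6, Rgs2 (0.33) and Map1lc3b (0.08) had not passed between CuO NPs and control. The 3 targets lower in CuO NPs than in control were the kinase Mknk2 (-0.46), the oxidase Ero1a (-0.30) and the death gene Bcl2l11 (-0.46). The 4 lower in CuO NPs + TTM than in control were Rgs2 (-0.70), Bcl2l11 (-0.43), the autophagy gene Atg5 (-0.20) and Slc3a2 (-0.13).

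**Figure D3:**
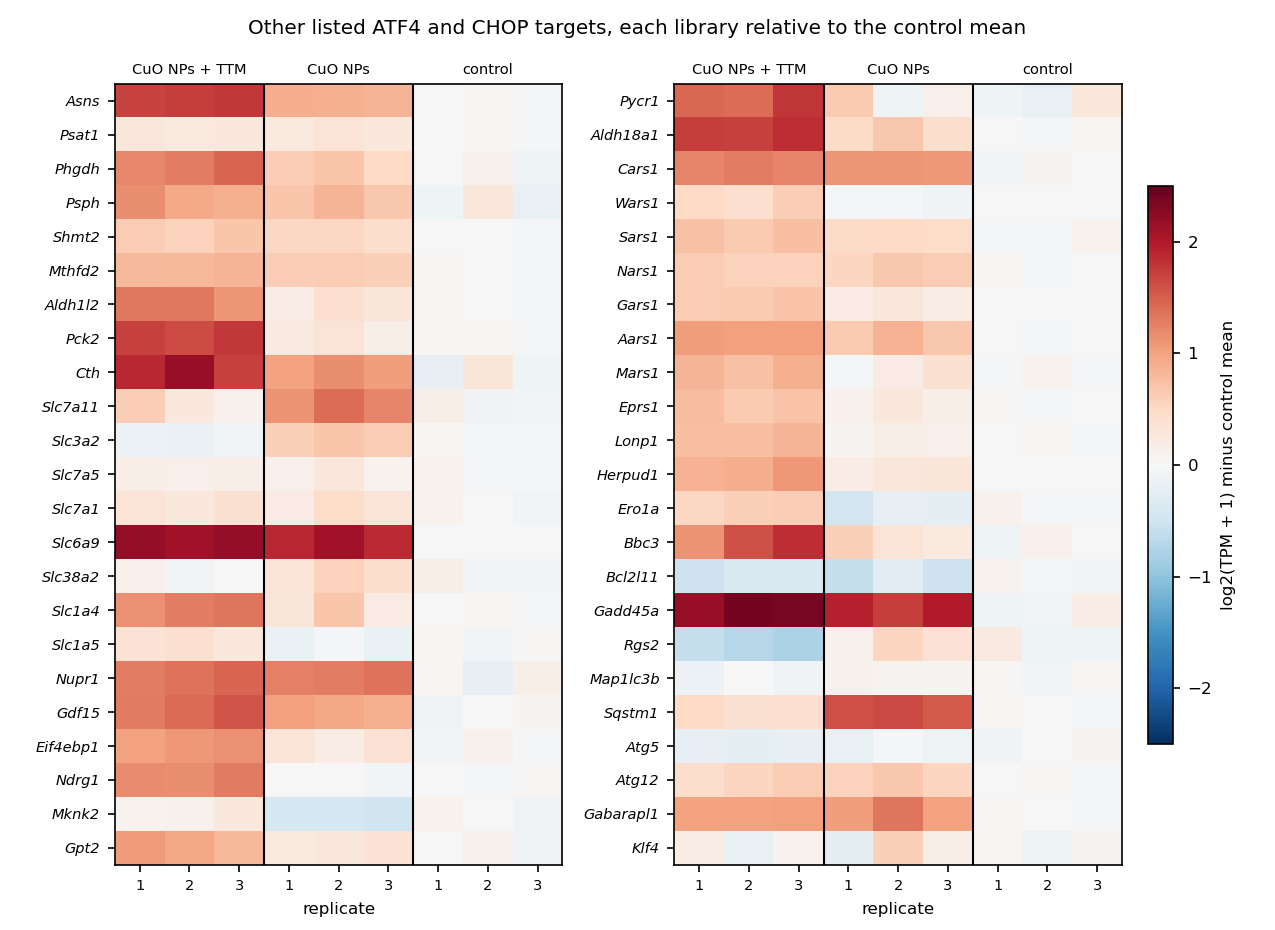
Colour gives log2(TPM + 1) of each tested ATF4 or CHOP target in each library minus the mean of the 3 control libraries, red for above and blue for below, with CuO NPs + TTM columns left, CuO NPs in the middle and control right. Asns, Cth and Gadd45a are reddest in CuO NPs + TTM, while Slc7a11 and Sqstm1 are reddest in CuO NPs.

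Genes of the machinery upstream of ATF4 moved less and in both directions. The list held 21 genes for eIF2 kinases and their regulators, eIF2 and eIF2B subunits, and phosphatase partners. Of these, 3 were higher and 9 lower in CuO NPs than in control (median -0.15 beside -0.12 for all genes). Among all tested genes 11.8% were higher and 30.1% lower. With median-of-ratios scaling the balance turned to 6 higher and 4 lower, and over the whole table to 2571 and 2561. The kinase PKR (Eif2ak2) averaged 13.5 ± 1.24 TPM in CuO NPs and 22.7 ± 1.78 TPM in control (log2 fold change -0.70). Impact, an inhibitor of the kinase GCN2, gave -0.75 in that comparison, and the 3 higher genes were the eIF2B subunit gene Eif2b2 (0.42), Dele1 (0.33) and the eIF2 subunit gene Eif2s2 (0.27).

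TTM beside the nanoparticles left 7 of the 21 higher and 8 lower than in CuO NPs (median -0.07 beside 0.12). Median-of-ratios scaling gave 5 and 11, beside 3402 and 3511 over the whole table. Among all tested genes 34.6% were higher and 18.5% lower with TPM. Among the higher were the kinase genes Eif2ak4 and Eif2ak3. Eif2ak4, which encodes the amino acid sensor GCN2, averaged 8.36 ± 0.631 TPM in CuO NPs + TTM and 4.35 ± 0.267 TPM in CuO NPs (log2 fold change 0.81). Eif2ak3, which encodes the endoplasmic reticulum sensor PERK, averaged 12.8 ± 0.592 TPM in CuO NPs + TTM and 8.01 ± 0.362 TPM in CuO NPs (0.61). Impact was higher by 0.78. Against control, 6 were higher and 11 lower in CuO NPs + TTM, where 27.3% of all tested genes were higher and 28.2% lower. Dele1, which relays mitochondrial stress to the kinase HRI, averaged 45.7 ± 3.12 TPM in CuO NPs + TTM and 26.0 ± 1.10 TPM in control (0.79), and Eif2ak1, the HRI gene itself, averaged 21.6 ± 1.92 TPM in CuO NPs + TTM and 35.6 ± 1.21 TPM in control (-0.70).

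The IRE1-XBP1 and ATF6 arms are the other branches of the unfolded protein response, and how many of their genes passed after CuO NPs depended on the scaling. A gene on this list is also counted among the eIF2 genes above. Of 20 tested genes, 3 were higher and 2 lower in CuO NPs than in control (median 0.02 beside -0.12). Over all tested genes 41.9% passed, 11.8% higher and 30.1% lower. Median-of-ratios scaling gave 9 higher and 1 lower, beside 2571 and 2561 over the whole table. Median centring gave 11 and 1, beside 3134 and 2071. The 3 higher were Dnajb9, a chaperone partner, which averaged 22.4 ± 1.24 TPM in CuO NPs and 6.97 ± 0.278 TPM in control (log2 fold change 1.55), the sensor gene Ern1 (0.34) and the chaperone gene Hyou1 (0.34). The 2 lower were Edem1 (-0.62), which serves degradation of misfolded proteins, and the chaperone Hsp90b1 (-0.14). The central chaperone BiP, encoded by Hspa5, gave 0.19 and did not pass.

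With TTM, 9 of these 20 were higher and 4 lower than in CuO NPs. Among all tested genes 34.6% were higher and 18.5% lower with TPM. Median-of-ratios scaling gave 7 and 7, beside 3402 and 3511 over the whole table. Median centring gave 5 and 8, beside 2741 and 4222. Edem1 averaged 63.5 ± 1.71 TPM in CuO NPs + TTM and 33.7 ± 3.16 TPM in CuO NPs (log2 fold change 0.90), and Sdf2l1, a chaperone cofactor, averaged 96.2 ± 8.41 TPM in CuO NPs + TTM and 56.7 ± 3.59 TPM in CuO NPs (0.75). The 4 lower were Dnajb9 (-0.75), the chaperone genes Dnajb11 (-0.32) and Canx (-0.27), and the translocon gene Sec61b (-0.24). Against control, 9 were higher and 5 lower in CuO NPs + TTM, where 27.3% of all tested genes were higher and 28.2% lower. Sdf2l1 gave 0.99, Ern1 0.89 and Dnajb9 0.80.

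**Figure D4:**
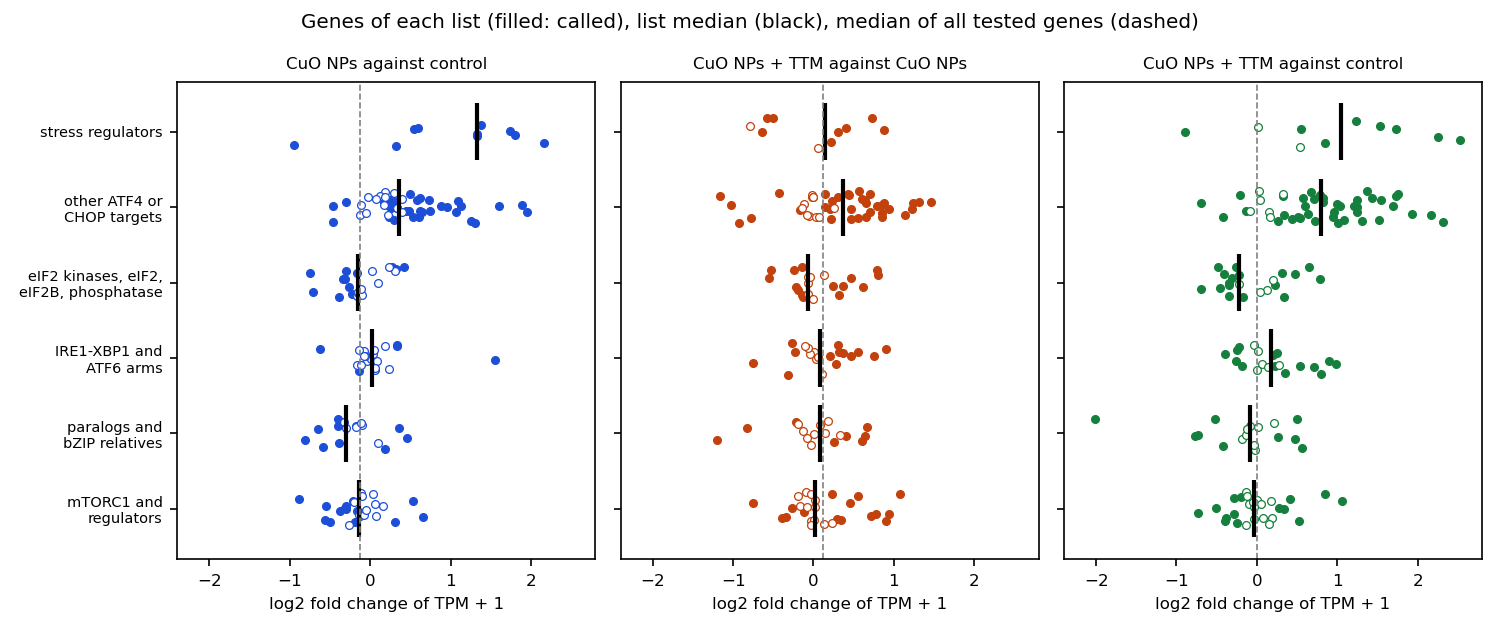
Log2 fold change of TPM + 1 for every tested gene of each list in the 3 comparisons, with filled points for genes that passed the test, black bars at list medians and a dashed line at the median of all tested genes. The stress regulators and the other ATF4 or CHOP targets have medians of 1.33 and 0.36 for CuO NPs against control, while the eIF2 list has -0.15.

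Close relatives of the members were read against the whole table, where 11.8% of genes were higher and 30.1% lower in CuO NPs than in control. Of 22 paralogs and leucine zipper relatives 17 were tested. In CuO NPs against control 3 were higher and 7 lower (median -0.30 beside -0.12). Median centring gave 3 and 4, beside 3134 and 2071 over the whole table. The 3 higher were Cebpg (0.36), a partner of ATF4 on composite elements, Batf3 (0.46), a basic leucine zipper factor, and Atf6b (0.19), a relative of ATF6. Trib1, the relative of Trib3 that directs C/EBPα to degradation, averaged 9.52 ± 0.809 TPM in CuO NPs and 17.5 ± 1.62 TPM in control (log2 fold change -0.81). Sesn1, the relative of Sesn2, gave -0.65, and Cebpd, the relative of Cebpb, gave -0.58.

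Between CuO NPs + TTM and CuO NPs, 5 relatives were higher and 3 lower. Median-of-ratios scaling gave 3 and 4, beside 3402 and 3511 over the whole table. Among all tested genes 34.6% were higher and 18.5% lower with TPM. Trib1 averaged 3.68 ± 1.20 TPM in CuO NPs + TTM and 9.52 ± 0.809 TPM in CuO NPs (log2 fold change -1.20), where Trib3 gave 0.73. Cebpa averaged 13.1 ± 1.33 TPM in CuO NPs + TTM and 24.1 ± 3.06 TPM in CuO NPs (-0.83). Sesn3, at 2.40 ± 0.447 TPM in CuO NPs + TTM and 1.19 ± 0.662 TPM in CuO NPs, gave 0.67 where Sesn2 gave -0.50, although its libraries overlapped between those groups. The other 4 higher were Atf6 (0.64), Sesn1 (0.61), Crebl2 (0.40) and Atf7 (0.25), and the third lower one was Atf6b (-0.21). Against control, 4 were higher and 5 lower in CuO NPs + TTM, where 27.3% of all tested genes were higher and 28.2% lower. The lower were Trib1 (-2.01), Cebpd (-0.77), Cebpa (-0.73), Jdp2 (-0.52) and Chac2 (-0.42). The higher were Sesn3 (0.56), Cebpg (0.50), Batf3 (0.47) and Atf6 (0.26).

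Sestrin 2, REDD1 and TRIB3 act on mTORC1 signalling, whose own genes had no shared direction. Of 27 tested genes of mTORC1 and its regulators, 3 were higher and 12 lower in CuO NPs than in control (median -0.13 beside -0.12), but 6 higher and 4 lower with median centring. Of all 12904 tested genes 11.8% were higher and 30.1% lower with TPM, and 3134 were higher and 2071 lower with median centring. The arginine sensor homologue Castor2 gave -0.89. The 3 higher were the mTORC1 inhibitor gene Akt1s1 (0.66), the GTPase gene Rheb (0.54) and the folliculin gene Flcn (0.31). In CuO NPs + TTM against CuO NPs 10 were higher and 5 lower, and of all tested genes 34.6% and 18.5%. Median-of-ratios scaling gave 8 and 12, beside 3402 and 3511 over the whole table. Deptor, which encodes an mTOR inhibitor, averaged 6.11 ± 0.140 TPM in CuO NPs + TTM and 2.37 ± 0.200 TPM in CuO NPs (log2 fold change 1.08), Castor2 gave 0.94 and the Rag GTPase gene Rragd gave 0.90. The 5 lower were Akt1s1 (-0.76), Prkaa1 (-0.39), Flcn (-0.34), Rheb (-0.27) and Sec13 (-0.12). Against control, 6 were higher and 8 lower in CuO NPs + TTM, where 27.3% of all tested genes were higher and 28.2% lower. Rragd gave 1.06 and the GATOR1 subunit gene Nprl2 gave 0.85.

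Genes were ranked by how closely their log2(TPM + 1) profile over the 9 libraries, centred on its mean, followed that of Atf4 or Ddit3, over 10741 genes. Smaller root mean square differences mean a closer profile, and the profile's own SD was 0.375 for Atf4 and 0.994 for Ddit3. Nearest to Atf4 were Adprh (0.0369), an ADP-ribosyl hydrolase, Mthfd2 (0.0462), the mitochondrial folate enzyme on the target list, Sqor (0.0546), which oxidises sulfide, Cdt1 (0.0615), a DNA replication licensing factor, and Gaa (0.0630), the lysosomal glucosidase. Mthfd2 averaged 119.6 ± 1.29 TPM in CuO NPs + TTM, 103 ± 1.74 TPM in CuO NPs and 67.0 ± 1.57 TPM in control. Nearest to Ddit3 were Trib3 (0.213), Gadd45a (0.248), the asparagine synthetase gene Asns (0.273), Cth (0.280) and Chac1 (0.283). All of them are members or listed targets, and both lists were drawn up with results of these data known. Asns averaged 140.1 ± 3.57 TPM in CuO NPs + TTM, 77.1 ± 1.96 TPM in CuO NPs and 41.4 ± 0.895 TPM in control. The ranking describes these 9 libraries, which fall into 3 groups.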

How the data were processed

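RNA from 9 libraries of MH-S cells was made into stranded poly(A) mRNA libraries, per the labels' protocols. The authors deposited 1 table of TPM per gene with 2 decimals, and the tools named, per the submitters' processing notes, are DESeq2, RSEM, HISAT2 and fastp, with the build GRCm39 and no versions or roles. Whether strand was used in counting is not given in the sources used here. TPM keeps no read depth, so no counting interval is given.

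Symbols were matched by Ensembl identifier for 52073 of 56980 identifiers. Genes with at least 1 TPM in at least 3 of 9 libraries were kept. A mean per group was fitted to log2(TPM + 1) of all libraries (limma 3.58.1, R 4.3.3, eBayes with trend, two-sided), which understates changes of low genes. P-values were adjusted by Benjamini-Hochberg over 12904 genes within each comparison, and a gene passed, and is called higher or lower, at an adjusted p below 0.05. The fit was tested on simulated data. Members and lists were chosen with earlier results of these data known.

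Named genes are all members in every comparison, up to 3 passing genes per list and comparison with the largest change, the 5 genes with profiles nearest to Atf4 and Ddit3, and genes of a list where a count was 5 or fewer. A few other listed genes were named after their values were seen. The values of 1 listed gene are not reported here. Alternatives were other pseudocounts, filters, scalings, samples in the fit, a replicate block, no trend, and leaving out each library. Motifs were searched in RefSeq promoter windows with Python 3.11.15, and overlapping genes were taken from GENCODE M21 on GRCm38.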

Additional observations from a re-analysis of the deposited data

How the results depend on the processing

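Of 30 values, 1 per member and comparison, 23 kept their direction and their side of the threshold under all 20 alternatives. With median centring 5 members passed in CuO NPs + TTM against CuO NPs, in place of 8. Leaving out 1 library at a time gave 9 to 10 members in CuO NPs against control, 7 to 9 in CuO NPs + TTM against CuO NPs and 8 in CuO NPs + TTM against control. Values that had not passed turned sign: for Atf5 in CuO NPs + TTM against CuO NPs they were -0.067 with median-of-ratios scaling, -0.13 with median centring and with quantile normalization, -0.00097 without mitochondrially encoded genes and, leaving out 1 library at a time, between -0.0036 and 0.14, below 0 without CuO NPs + TTM replicate 1. For Atf3 in CuO NPs + TTM against control they were -0.00028 without mitochondrially encoded genes and, leaving out 1 library at a time, between -0.055 and 0.062, below 0 without control replicate 2 or CuO NPs + TTM replicate 3. The cause was not tested.

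No pairing by replicate number was visible in the values. Same-numbered libraries of different groups correlated between -0.127 and 0.00969 in their deviations from the group means. Of the libraries, 0 of 9 correlated best with their own number in both other groups. The labels do not say what the number marks, and these correlations cannot show that no culture or day was shared. With the replicate block 9 members passed in CuO NPs against control, where Cebpb was lost (limma adjusted p = 0.0644), and 8 in each of the other comparisons. No TTM-only group, the unknown depth and 3 libraries per group limit every comparison.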

Other observations

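Set against Atf4 in the same library, the members fell into different orders. Ddit3 stood at 24.1 ± 3.07% of the TPM of Atf4 in CuO NPs + TTM, 16.0 ± 0.978% in CuO NPs and 8.86 ± 0.633% in control (SD, n = 3 each), so CHOP mRNA was higher per Atf4 mRNA in each step. Trib3 stood at 18.5 ± 1.34% in CuO NPs + TTM, 13.7 ± 0.827% in CuO NPs and 5.54 ± 0.169% in control. Ppp1r15a stood at 17.5 ± 1.62% in CuO NPs + TTM, 33.6 ± 1.03% in CuO NPs and 10.7 ± 0.493% in control, and was thus below Ddit3 in CuO NPs + TTM and above it in CuO NPs and in control. Atf3 stood at 14.04 ± 0.681% in CuO NPs + TTM, 26.1 ± 1.93% in CuO NPs and 25.2 ± 1.68% in control, so relative to Atf4 its libraries in CuO NPs + TTM lay below those of control, where its TPM did not. Ddit4 stood at 5.74 ± 0.515% in CuO NPs + TTM, 6.06 ± 0.50% in CuO NPs and 6.996 ± 0.240% in control, with every library of both exposed groups below every control. These shares are descriptions and were not tested.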
